A study of Homo sapiens with 4 samples.

Results

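The potassium channel genes were the rows of the read count table whose Ensembl identifier maps to a protein-coding symbol beginning with KCN. The rule found 95 of the 60234 genes in the table, and all 95 protein-coding KCN genes of the annotation had a row. They comprised 27 voltage-gated pore subunits (KCNA, KCNB, KCNC, KCND, KCNF, KCNG, KCNS and KCNV), 5 KCNQ genes, 8 KCNH genes, 15 inward rectifiers (KCNJ), 15 two-pore-domain channels (KCNK), 8 calcium- and sodium-activated channels (KCNM, KCNN, KCNT and KCNU) and 17 auxiliary and regulatory genes (KCNAB, KCNE, KCNIP, KCNMB and KCNRG). RNA came from 4 sorted populations of 1 human embryonic stem cell line, NKX2.5:GFP, in which 1 allele of the cardiac transcription factor gene NKX2-5 carries eGFP. All populations came from spin embryoid bodies driven towards heart. RA cultures received 1 µM retinoic acid from day 4 to day 7 and control (CTR) cultures received the solvent DMSO over the same days, and sorting at day 31 gave RA GFP-positive, CTR GFP-positive, RA GFP-negative and CTR GFP-negative cells, with 1 library each. GFP reports the NKX2-5 locus and not a chamber or a channel, so that each population can hold several cell types, and in bulk RNA fewer cells of a type and less RNA per cell cannot be told apart. RA and CTR cells grew in separate cultures, and a difference between cultures cannot be told apart from an effect of RA.

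Potassium channels let potassium ions leave the cell along their gradient, and in heart muscle these outward currents set the resting potential and end the action potential. Voltage-gated channels open on depolarisation, inward rectifiers hold the resting membrane or respond to acetylcholine and to ATP, two-pore-domain channels carry background leak, and calcium-activated channels couple the membrane to intracellular calcium. Atrial muscle is known for the ultrarapid current of KCNA5, the acetylcholine-activated current of KCNJ3 and KCNJ5 and the leak current of KCNK3, whereas KCNJ2 is the main inward rectifier of the ventricle. Auxiliary subunits such as KCNE and KCNIP proteins carry no current of their own and change the gating or surface level of the pore.

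The stretches before the start sites of 3 of the KCN genes are shown, 2 of which were called higher with RA below (KCNA4 and KCNK3) while the third (KCNA5) was among the most abundant KCN genes in every library, and none of the printed bases lies in an annotated exon. Each is the 250 bases before the RefSeq start, from a table on GRCh38.p14, written in the direction of the gene, and each matched GRCh37 at 1 place: KCNA5, the ultrarapid delayed rectifier, at chr12:5152795-5153044 on the plus strand, KCNA4, a transient outward channel, at chr11:30038578-30038827 on the minus strand, and KCNK3, an acid-sensitive leak channel also called TASK-1, at chr2:26915340-26915589 on the plus strand. Capitals mark every GC box, GGGCGG or its reverse complement CCGCCC.
KCNA5: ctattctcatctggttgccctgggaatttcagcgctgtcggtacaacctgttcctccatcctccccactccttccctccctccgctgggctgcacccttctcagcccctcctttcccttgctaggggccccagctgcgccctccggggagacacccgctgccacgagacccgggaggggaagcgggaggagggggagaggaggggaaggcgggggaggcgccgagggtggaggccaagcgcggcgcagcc
KCNA4: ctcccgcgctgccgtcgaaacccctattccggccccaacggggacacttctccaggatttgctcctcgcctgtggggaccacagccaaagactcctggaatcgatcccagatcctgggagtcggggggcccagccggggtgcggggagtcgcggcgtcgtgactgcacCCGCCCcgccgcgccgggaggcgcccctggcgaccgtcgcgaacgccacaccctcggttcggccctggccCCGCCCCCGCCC
KCNK3: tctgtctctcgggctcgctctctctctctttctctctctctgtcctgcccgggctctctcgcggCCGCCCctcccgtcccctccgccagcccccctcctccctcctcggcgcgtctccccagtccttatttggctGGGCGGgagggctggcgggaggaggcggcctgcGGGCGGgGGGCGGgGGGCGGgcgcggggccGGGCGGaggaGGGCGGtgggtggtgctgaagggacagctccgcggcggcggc
The KCNK3 stretch held 7 GC boxes, that of KCNA4 held 3 and that of KCNA5 none, and their GC content was 76.4%, 73.2% and 68.8%. The table held promoters of 71 KCN genes, and in the same window 40 of these (56.3%) had a GC box, against 56.0% of 15843 protein-coding genes. The nuclear receptor half-site AGGTCA was found, on either strand, in 5 of the 71 (7.04%, against 10.3% of all), and in none of the 3 printed stretches. TATAAA was found in 6 (8.45% against 9.23%), CACGTG in 3 (4.23% against 7.84%) and AGATAA in 1 (1.41% against 6.84%). A match describes these letters in this window and is not evidence of a bound site.

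Between 4371101 (CTR GFP-negative) and 28643091 (CTR GFP-positive) reads were counted per library, so that a gene with no reads could hide 3 reads, or 0.639 CPM, in CTR GFP-negative cells and 0.105 to 0.117 CPM in the others. CPM were read counts scaled to a common library size with TMM factors. NKX2-5 itself was at 463 and 593 CPM in the RA and CTR GFP-positive cells and at 9.74 and 14.5 CPM in the GFP-negative cells. The 8 cardiomyocyte markers summed to 14464.5 and 16103 CPM in the GFP-positive and to 359 and 724 CPM in the GFP-negative cells, with none at 0, so the GFP-negative cells were low in cardiac RNA and not free of it. Smooth muscle and fibroblast markers (8 genes) summed to 13862 and 3805 CPM in the RA and CTR GFP-positive cells and to 49766.5 and 26132 CPM in the GFP-negative cells, again with none at 0.

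At least 4 reads were found for 78 of the 95 KCN genes in RA GFP-positive, 71 in CTR GFP-positive, 80 in RA GFP-negative and 66 in CTR GFP-negative cells. Of all 95, 56 reached this level in every library and 85 in at least 1. The 10 that did not were KCNA10, KCNA2, KCNC1, KCNG4, KCNH4, KCNK16, KCNK18, KCNK4, KCNK9 and KCNU1, and 5 of them (KCNA10, KCNA2, KCNK16, KCNK18 and KCNK9) had 0 reads in all 4 libraries. These are not shown to be silent, since 3 reads remain possible for each. At 1 CPM or more stood 56, 49, 60 and 63 genes, and at 10 CPM or more 28, 26, 20 and 19, in the same order of libraries. The KCN genes together took 1408 CPM in RA GFP-positive, 1228 in CTR GFP-positive, 746 in RA GFP-negative and 787 in CTR GFP-negative cells, so that the sum was higher in both GFP-positive populations.

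**Figure D1:**
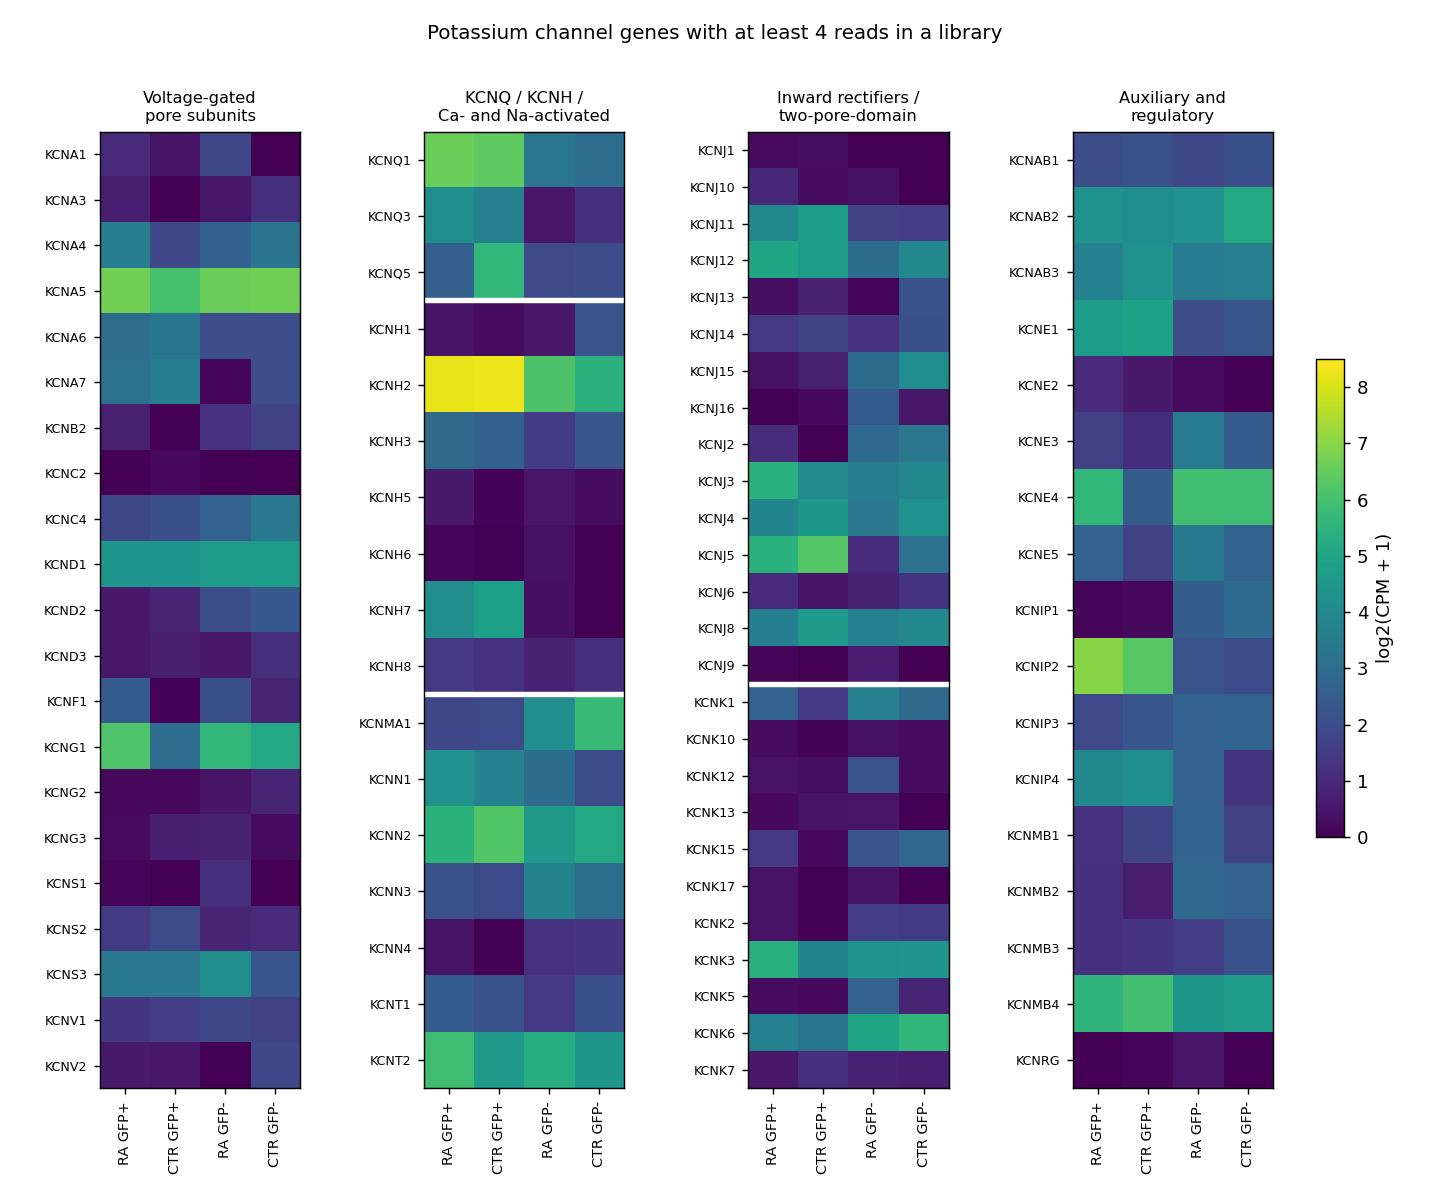
The colour scale gives log2(CPM + 1) of 81 of the 85 KCN genes with at least 4 reads in a library, 1 row per gene and 1 column per library, in 4 panels by channel group. KCNH2 is the brightest row, at 295 and 308 CPM in the RA and CTR GFP-positive cells, KCNA5 is bright in all 4 columns, and KCNQ5 is bright in CTR GFP-positive cells, at 48.1 CPM.

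Levels of different genes were compared as CPM per kb of exon, where the length was all bases in any annotated exon of the gene. Genes with long exon sets over many transcripts are thus lowered in the order. KCNMA1, with 39437 bases, went from 52.0 CPM to 1.32 CPM per kb in CTR GFP-negative cells. KCNH2, the hERG channel of the rapid delayed rectifier, had the highest level of all KCN genes in CTR GFP-positive cells at 42.8 CPM per kb and in RA GFP-positive cells at 41.0 CPM per kb, against 9.61 in RA and 5.97 in CTR GFP-negative cells. In both GFP-positive populations KCNIP2, the partner that brings Kv4 pores to the surface, came next (37.5 with RA and 22.9 in CTR), then KCNA5 (36.0 and 21.8) and KCNQ1, the pore of the slow delayed rectifier (21.3 and 18.6). The fifth place was held by KCNE4, an inhibitory auxiliary subunit, at 13.1 CPM per kb in RA GFP-positive cells, and by KCNMB4, a subunit of the large-conductance calcium-activated channel, at 12.5 in CTR GFP-positive cells. The GFP-negative cells were led by KCNA5 (33.0 with RA and 34.7 in CTR) and KCNE4 (15.9 and 15.4), with KCNH2, KCNG1 and KCNE5 following in RA cells and KCNJ4, KCNK6 and KCNG1 in CTR cells.

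By channel group, the KCNH genes held 16.1% of the summed CPM per kb of all KCN genes in RA GFP-positive and 20.8% in CTR GFP-positive cells, against 6.43% and 4.55% in the RA and CTR GFP-negative cells. Voltage-gated pore subunits held 24.0% and 16.8% in the GFP-positive and 36.6% and 35.4% in the GFP-negative cells. The share of two-pore-domain channels was 3.97% and 2.15% in the GFP-positive and 9.99% and 10.3% in the GFP-negative cells, and that of inward rectifiers 12.6% and 19.0% against 10.3% and 16.8%, RA first. KCNQ genes held 9.33% and 10.9% against 2.93% and 2.52%. The KCNH and KCNQ groups thus took larger shares in the NKX2.5:GFP-positive cells and the leak channels larger shares in the GFP-negative cells.

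The first comparison asked which KCN genes differed between RA and CTR cells in the GFP-positive fraction, which held cardiomyocyte and also smooth muscle and fibroblast markers. A gene was called where log2(CPM + 1) differed by at least 1 and either library held at least 1 CPM, which 57 of the 95 KCN genes did. Of these, 11 were called higher with RA (19.3% of the 57, against 5.09% of the 17465 genes of the whole table that met the same minimum) and 1 lower (1.75% against 2.12%). The median difference was 0.14 over the 57 and 0.01 over all genes, and these became -0.03 and -0.06 when libraries were scaled by library size alone. Those higher included KCNE4, KCNG1, KCNF1, KCNA4, KCNK3, KCNJ3, KCNT2, KCNK1, KCNK15 and KCNJ2, and the lower gene was KCNQ5. With 1 library per condition these differences have no replicate check, no test between conditions was made, and the intervals given with ratios cover counting error alone. The nearest genes on either side of the limit were KCNJ2 (1.09) and KCNE5 (0.96) among the higher, and KCNQ5 (-3.04) and KCNJ8 (-0.88) among the lower.

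The KCNQ genes encode slow, non-inactivating voltage-gated channels, KCNQ1 being the cardiac form and KCNQ3 and KCNQ5 M-current forms best known from neurons. KCNQ5 (ENSG00000185760, chromosome 6 of GRCh37, 73331520 to 73908576) had 133 and 1377 reads, or 4.97 and 48.1 CPM, in the RA and CTR GFP-positive cells and 2.65 and 2.98 CPM in the GFP-negative cells. It was thus highest in CTR GFP-positive cells, and the ratio of RA to CTR was 0.103 (0.086 to 0.124), a difference of log2(CPM + 1) of -3.04. KCNQ1 had 94.6 and 82.7 CPM (0.19) and KCNQ3 18 and 12 CPM (0.55), neither of which was called. Of the 8 neuron markers, STMN2 (42.5 CPM with RA and 1.26 CPM in CTR GFP-positive cells) and GAP43 (2.80 and 0.489 CPM) were called higher and the other 6 were not called. All 8 summed to 72.4 CPM with RA and 24.8 CPM in CTR, none was at 0, and their part in the differences of the KCN genes was not tested.

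Among the 27 voltage-gated pore subunits, 13 held at least 1 CPM in either GFP-positive library, and 3 of these were called higher and none lower with RA (against 5.09% and 2.12% of all genes, which also hold beside the counts of the other channel groups below). KCNG1 (ENSG00000026559, chromosome 20, 49620193 to 49639644), a silent subunit that alters the channels of other voltage-gated pores, had 1890 and 207 reads, or 70.7 and 7.22 CPM, in the RA and CTR GFP-positive cells and 48.3 and 33.9 CPM in the GFP-negative cells. KCNF1, another silent subunit, had 122 and 2 reads, or 4.56 and 0.0698 CPM, and 3.23 and 0.852 CPM in the GFP-negative cells. Both were thus lowest in CTR GFP-positive cells, with ratios of 9.78 (8.47 to 11.3) for KCNG1 and 65.4 (17.7 to 546) for KCNF1, the latter resting on 2 reads. KCNB2, a pore that such subunits join, was low and reached 2.13 CPM at most, in CTR GFP-negative cells. KCNA4 (ENSG00000182255, chromosome 11, 30031277 to 30038577), whose stretch before the start is printed above, had 307 and 75 reads, or 11.5 and 2.62 CPM, in the RA and CTR GFP-positive cells and 5.18 and 8.73 CPM in the GFP-negative cells, a ratio of 4.39 (3.40 to 5.72) in the GFP-positive cells. KCNA5 (ENSG00000130037, chromosome 12, 5153045 to 5155954) had 105 and 63.5 CPM in the GFP-positive and 95.9 and 101 CPM in the GFP-negative cells. Its ratio of 1.65 (1.55 to 1.75) lay above 1 and under the limit for a call, and its level was lowest in CTR GFP-positive cells. The Kv4 pores of the transient outward current were low in the same cells, with KCND2 at 0.486 and 0.838 CPM and KCND3 at 0.486 and 0.628 CPM, whereas KCND1 had 21.2 and 20.9 CPM.

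None of the 4 KCNH genes at or above 1 CPM was called. KCNH2 (ENSG00000055118, chromosome 7, 150642049 to 150675409) had 295 and 308 CPM (ratio 0.957, 0.929 to 0.987), KCNH7 17.6 and 27.3 CPM (0.643, 0.572 to 0.722) and KCNH3 6.66 and 5.23 CPM in RA and CTR GFP-positive cells. With KCNQ1 at a ratio of 1.14 (1.08 to 1.21), the pores of the rapid and the slow delayed rectifier stood close to their CTR level, which was not so for KCNA5.

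Of the 15 inward rectifiers, 9 were at 1 CPM or more in either GFP-positive library, 2 of them called higher and none lower. KCNJ3 (ENSG00000162989, chromosome 2, 155554367 to 155714866), one pore of the acetylcholine-activated current, had 41.7 CPM in RA and 15.1 CPM in CTR GFP-positive cells, and 11.2 and 14.3 CPM in the GFP-negative cells. KCNJ5 (ENSG00000120457, chromosome 11, 128761251 to 128791058), its usual partner in the same channel, had 42.2 and 73.7 CPM in the GFP-positive and 1.13 and 8.09 CPM in the GFP-negative cells. The 2 subunits thus lay on opposite sides of equal CPM, KCNJ3 at a ratio of 2.76 (2.47 to 3.09) and KCNJ5 at 0.572 (0.532 to 0.615), the latter not called at -0.79. Per kb, KCNJ3 was at 8.49 and KCNJ5 at 6.76 CPM in RA GFP-positive cells, against 3.07 and 11.8 CPM in CTR GFP-positive cells, so that the order of their levels differed between the libraries. The ATP-sensitive pores KCNJ8 (11.9 against 22.7 CPM) and KCNJ11 (14.4 against 25.7 CPM) and the strong inward rectifier KCNJ4 (13.4 against 22.2 CPM) also had ratios under 1 without a call, at 0.522 (0.455 to 0.598), 0.560 (0.494 to 0.634) and 0.604 (0.529 to 0.688). KCNJ12, a further IK1 pore, had 31.4 and 25.2 CPM, a value that is uncertain because its near-identical copy KCNJ18 was not in the annotation and reads with several positions were left out. KCNJ2, called from 30 reads against 0, was at 1.12 CPM in RA GFP-positive cells and so stood under KCNJ12 and KCNJ4, with 0.201 CPM per kb against 5.76 and 6.50.

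Of the 15 two-pore-domain channels, 5 were at 1 CPM or more in either GFP-positive library, and 3 of these were called higher with RA. KCNK3 (ENSG00000171303, chromosome 2, 26915590 to 26956288) had 1083 and 385 reads, or 40.5 and 13.4 CPM, in RA and CTR GFP-positive cells and 19.9 and 20.7 CPM in the GFP-negative cells. KCNK1, a weakly conducting TWIK channel, had 5.31 and 1.68 CPM against 12 and 6.60 CPM in the GFP-negative cells. KCNK15, a relative of KCNK3, had 44 and 4 reads, or 1.65 and 0.140 CPM, against 3.70 and 5.96 CPM. All 3 were lowest in CTR GFP-positive cells, and the ratios of RA to CTR were 3.01 (2.68 to 3.39), 3.17 (2.27 to 4.49) and 11.8 (4.29 to 45.2). KCNK6 had 12.3 and 8.93 CPM (0.43) and KCNK7 0.486 and 1.22 CPM (-0.58), neither called. KCNK2, the stretch-activated TREK-1, stayed under 1 CPM in both, with 9 reads and 0.

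Among the calcium- and sodium-activated channels 6 of 8 were at 1 CPM or more and 1 was called higher. KCNT2 (ENSG00000162687, chromosome 1, 196194909 to 196578355), a sodium-activated channel, had 58.9 and 22.5 CPM in the RA and CTR GFP-positive cells and 38.1 and 21.7 CPM in the GFP-negative cells, with a ratio of 2.61 (2.38 to 2.87) in the GFP-positive cells. The small-conductance channel KCNN2 was lower with RA without a call, at 44.5 and 71.4 CPM (-0.67). KCNN1 had 18.8 and 12.6 CPM (0.54), KCNN3 3.33 and 2.76 CPM (0.20) and KCNMA1 2.54 and 2.79 CPM (-0.10). Of the 17 auxiliary and regulatory genes 15 were at 1 CPM or more and 1 was called higher, a share near the 5.09% of all genes. This was KCNE4 (ENSG00000152049, chromosome 2, 223916908 to 224063117), with 1310 and 133 reads, or 49.0 and 4.64 CPM, in the RA and CTR GFP-positive cells and 59.7 and 57.7 CPM in the GFP-negative cells, so that CTR GFP-positive cells stood apart from the other 3 libraries. The ratio was 10.6 (8.82 to 12.7). KCNIP2 had 127 and 77.7 CPM (ratio 1.64, 1.55 to 1.73), KCNE5 5.31 and 2.23 CPM, and KCNE1, the partner of KCNQ1, 24.3 and 29.8 CPM, none of which was called.

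Smooth muscle and fibroblast markers moved in the direction of the higher KCN genes. In RA GFP-positive cells 7 of the 8 markers were called higher, MYH11 at 115 against 3.35 CPM and DCN at 115 against 24.7 CPM among them, and CNN1 was not called (274 against 251 CPM). Of the 7 gut and liver epithelium markers 3 were called higher as well and none lower, AFP at 22.6 against 0.279 CPM among them. NPPA was the 1 of 8 cardiomyocyte markers called higher (131 against 37.8 CPM), and TEK the 1 of 5 endothelium markers. Of the 6 pigment cell markers 1 was called higher and 1 lower. The part of all these markers in the differences of KCNE4, KCNG1 and the other KCN genes was not tested. Of these genes, KCNA4, KCNE4, KCNG1, KCNJ3, KCNK3 and KCNT2 were called under all 10 alternatives, as was KCNQ5 among the lower, while KCNF1, KCNJ2, KCNK1 and KCNK15, which had at most 5.31 CPM in either library, lost the call under at least 1. An alternative minimum of 10 CPM drops such genes whatever their difference.

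**Figure D2:**
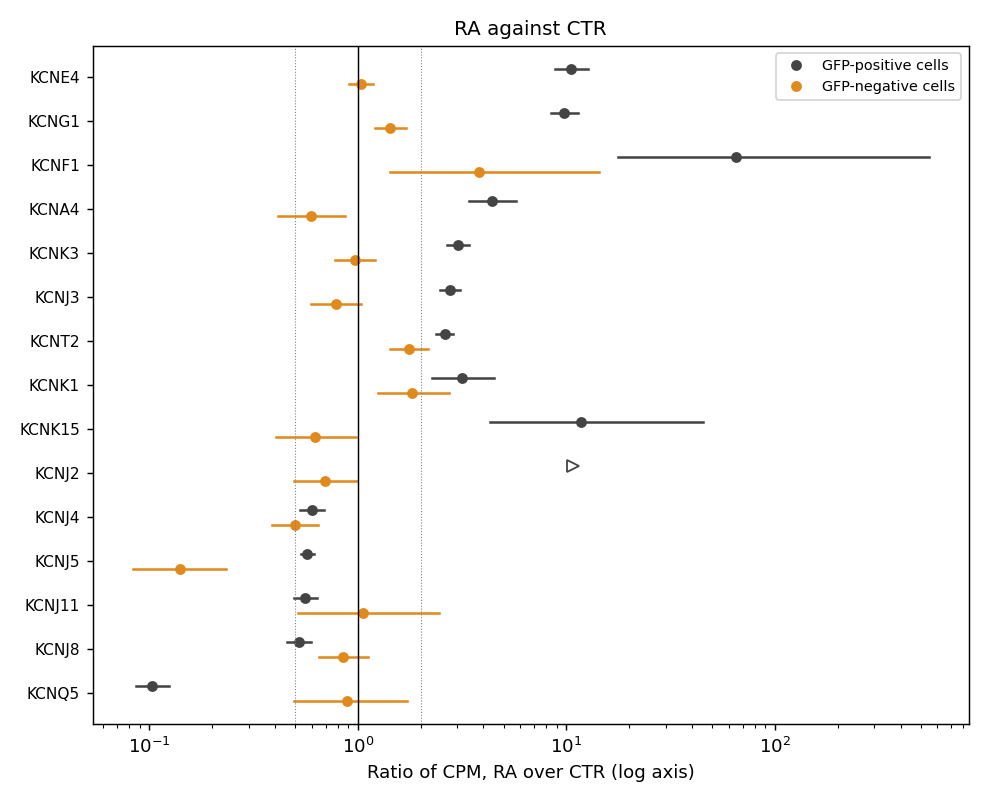
Points give the ratio of CPM in RA over CTR cells on a log axis for 15 KCN genes, 10 called higher in GFP-positive cells and the 5 lowest there, in GFP-positive (grey) and GFP-negative (orange) cells, with 95% intervals for counting error as lines. The open triangle sets a CPM against the floor of 3 reads, without the counting error of that CPM. Dotted lines mark 2-fold in either direction. KCNE4 sits at 10.6 in the GFP-positive cells and at 1.04 in the others, and KCNQ5 at 0.103 and 0.889.

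A list of 23 KCN genes known for the currents of heart muscle was also followed. Of these, 20 were at 1 CPM or more in either GFP-positive library, and 5 of these were called higher (KCNA4, KCNJ2, KCNJ3, KCNK1 and KCNK3) and none lower, against 5.09% and 2.12% of all genes, with a median of 0.26 against 0.01 over all genes. KCNJ2 and KCNK1 lost the call under at least 1 alternative. The highest 3 genes per kb in CTR GFP-positive cells, KCNH2, KCNIP2 and KCNA5, were not called. The 5 called genes belonged to the transient outward, inward rectifier, acetylcholine-activated and leak currents, and none to the delayed rectifiers, the ATP-sensitive pores or the calcium-activated channels.

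**Figure D3:**
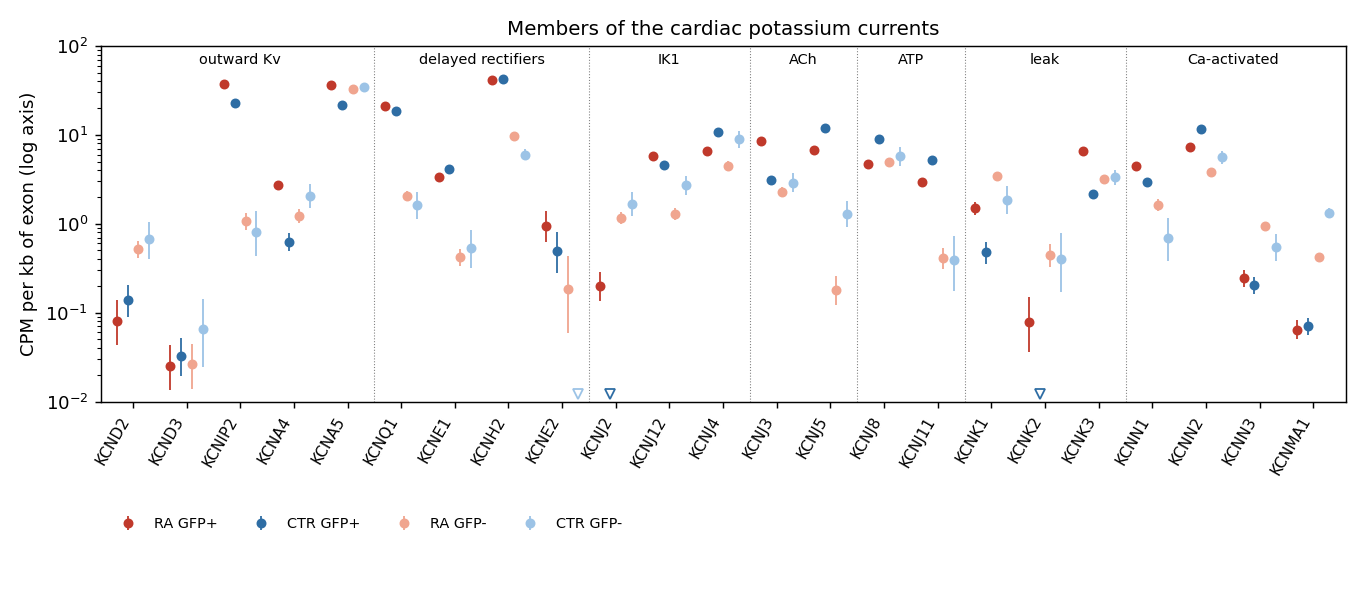
Each point is the level of 1 of the 23 cardiac current genes in 1 library as CPM per kb of exon on a log axis, with its exact 95% Poisson interval, and open triangles at the foot stand for 0 reads. KCNH2 is at 41.0 and 42.8 CPM per kb in the RA and CTR GFP-positive cells, KCND3 is at 0.0659 CPM per kb or less in every library, and KCNJ2 has no reads in CTR GFP-positive cells.

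Among GFP-negative cells 70 of the 95 KCN genes were at 1 CPM or more in either library. With RA 12 of them were called higher (17.1%, against 8.69% of 18642 genes) and 7 lower (10.0%, against 7.61%), and the median difference was -0.15, against 0.04 over all genes. The CTR library of this pair was the shallow one, so that many of the calls rest on few reads there. Of the 8 smooth muscle and fibroblast markers 4 were called higher with RA in these cells (TAGLN, COL1A1, LUM and DCN), and of the 8 neuron markers 2 were called higher (STMN2 and SNAP25) and 4 lower (ELAVL3, ELAVL4, DCX and SYT1). Of 4 pluripotent cell markers 2 were called higher, POU5F1 at 15.4 against 0 CPM and LIN28A at 10.8 against 2.13 CPM. The part of these markers in the KCN differences was not tested. KCNN1 (1.00) and KCNT2 (0.78) were the nearest genes above and under the limit among the higher, and KCNJ15 (-1.10) and KCNJ12 (-0.96) among the lower.

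The higher genes were led by a leak channel. KCNK12 had 94 reads with RA and 1 in CTR, or 3.66 and 0.213 CPM, against 0.337 and 0.244 CPM in the RA and CTR GFP-positive cells. KCNJ16, a pH-sensitive inward rectifier of kidney and gut, had 110 and 2 reads, or 4.29 and 0.426 CPM, against 0.0374 and 0.140 CPM. KCNK5, a leak channel of epithelia, had 138 and 4 reads, or 5.38 and 0.852 CPM, against 0.224 and 0.174 CPM. These 3 were highest in RA GFP-negative cells, with ratios of 17.2 (3.01 to 687), 10.1 (2.72 to 84.1) and 6.31 (2.41 to 23.5). Of the 7 gut and liver epithelium markers 6 were called higher with RA as well and CDH1 was not (146 against 122 CPM), the 7 summing to 939 CPM in RA and 153 CPM in CTR GFP-negative cells and to 91.3 and 33.1 CPM in the GFP-positive cells, with CDX2 the one at 0, in CTR GFP-positive cells. AFP held the largest part of the sum with RA (465 against 2.98 CPM), and the part of these markers was not tested. KCNS3 (ENSG00000170745, chromosome 2, 18059114 to 18542882), a silent voltage-gated subunit, had 433 and 18 reads, or 16.9 and 3.83 CPM, in the RA and CTR GFP-negative cells and 9.57 and 9.63 CPM in the GFP-positive cells. Its ratio of 4.40 (2.75 to 7.50) was the one higher call that held under all 10 alternatives. Among the higher genes the alternative minimum of 10 CPM admitted only KCNS3 and KCNE3. KCNA1 (64 reads against 0) and KCNS1 (33 against 0) were 3.90-fold and 2.01-fold higher when set against the floor of 3 reads. KCNIP4, KCNF1, KCNMB1, KCNE3 and KCNN1 were also called higher, with ratios between 2.27 and 3.80, and KCNIP4 is uncertain because 46.3% of its exon bases are shared with other genes.

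Of the 7 lower genes, KCNMA1 (ENSG00000156113, chromosome 10, 78629359 to 79398127), the pore of the large-conductance calcium-activated channel, had the most reads, with 432 in RA and 244 in CTR GFP-negative cells, or 16.8 and 52.0 CPM, against 2.54 and 2.79 CPM in the RA and CTR GFP-positive cells. KCNJ5 had 29 and 38 reads, or 1.13 and 8.09 CPM. KCNJ15, an inward rectifier, had 182 and 77 reads, or 7.09 and 16.4 CPM, against 0.299 and 0.663 CPM in the GFP-positive cells. The ratios were 0.324 (0.276 to 0.381) for KCNMA1, 0.140 (0.083 to 0.233) for KCNJ5 and 0.433 (0.330 to 0.572) for KCNJ15, and KCNMA1 was the one lower call that held under all 10 alternatives. Of the 7 lower genes the alternative minimum of 10 CPM admitted only KCNMA1 and KCNJ15. Of the 8 cardiomyocyte markers 4 were called lower with RA in these cells, TTN at 35.7 and 112 CPM among them, and 4 were not called, among them TNNT2 (126 and 230 CPM) and NPPA (2.84 and 1.92 CPM, the other way). The 8 had a sum of 359 and 724 CPM, and their part in the KCNJ5 difference was not tested. KCNA7, KCNJ13, KCNH1 and KCNV2 had between 0 and 13 reads with RA and between 12 and 17 in CTR. KCNJ13, a channel of the retinal pigment epithelium, had 0.117 and 3.41 CPM in the RA and CTR GFP-negative cells and shares 29.7% of its exon bases with other genes. Of the 6 pigment cell markers 5 were called lower with RA in the GFP-negative cells, PMEL at 48.2 and 444 CPM among them, and MLANA was not called (0.546 and 0 CPM). The 6 had a sum of 92.8 CPM with RA and 717 CPM in CTR GFP-negative cells and of 87.0 and 102 CPM in the GFP-positive cells, and their part was not tested. KCNV2 had 0 reads with RA and was 21.9-fold lower when the floor of 3 reads was taken there, and KCNH1 shares 46.8% of its exon bases with other genes.

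Among the 23 cardiac current genes, 22 were at 1 CPM or more in either GFP-negative library, and KCNN1 was called higher and KCNJ5 and KCNMA1 lower with RA, against 8.69% and 7.61% of all genes. KCNA5 had a ratio of 0.950 (0.861 to 1.05), KCNK3 of 0.964 (0.775 to 1.21) and KCNE4 of 1.04 (0.909 to 1.18) in these cells, against 1.65, 3.01 and 10.6 in the GFP-positive cells. The difference between the fractions in these ratios was not tested. Of the 85 KCN genes with at least 4 reads in a library, 10 (11.8%, against 7.57% of 29580 genes) had RA differences of opposite signs in the fractions with both intervals excluding equal CPM.

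Some KCN genes were seen in one library of a comparison and not in the other, and depth limits what can be said of them. KCNA3 (17 reads against 0), KCNB2 (18 against 0), KCNN4 (11 against 0), KCNK2 and KCNK17 (both 9 against 0) were seen in RA and not in CTR GFP-positive cells, all under 1 CPM. Set against the floor of 3 reads, their CPM were 6.07-fold, 6.43-fold, 3.93-fold and, for the last pair, 3.21-fold higher with RA. These values leave out the counting error of the RA library. KCNC2 had 5 reads in CTR GFP-positive cells and none elsewhere. In RA GFP-negative cells KCNE2, KCNH6, KCNJ9, KCNJ10, KCNK13, KCNK17 and KCNRG had between 5 and 15 reads and in CTR GFP-negative cells none, but each stood under the 0.639 CPM that 3 reads are worth there, so that no difference was detectable at this depth. The same holds for KCNA1, KCNC2, KCNE2, KCNJ1, KCNJ10 and KCNK13 between the CTR fractions. KCNE2, an auxiliary subunit of KCNH2 channels, reached 1.01 CPM at most, in RA GFP-positive cells.

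The sort itself was compared within each treatment. In CTR cultures 65 of the 95 KCN genes were at 1 CPM or more in either fraction, of which 16 were called higher in the GFP-positive cells (24.6%, against 14.1% of 18786 genes) and 25 lower (38.5%, against 17% of them). In RA cultures 67 met the minimum, with 20 called higher (29.9%, against 10.2% of 18111 genes) and 16 lower (23.9%, against 14.1%). The median differences were -0.24 in CTR and 0.19 in RA cultures, against 0.03 and 0.01 over all genes, and these medians depended on the minimum: at 10 CPM they were 0.66 over 31 KCN genes in CTR and 0.99 over 33 in RA cultures, and with no minimum both were -0.02. The balance of calls in CTR cultures depended on the settings too. With a minimum of 10 CPM, or a pseudocount of 5 CPM, more KCN genes were called higher than lower there. The nearest genes to the limit were KCNN2 (1.05) and KCNS2 (0.88) among the higher and KCNE5 (-1.02) and KCNMB3 (-0.86) among the lower in CTR cultures, and in RA cultures KCNA4 (1.01), KCNK3 (0.99), KCNS1 (-1.04) and KCNC4 (-0.84) lay close to it. The libraries of the sort comparisons are the same 4 as above, so that these values are not independent of the RA differences.

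Of the 23 cardiac current genes, 22 were at 1 CPM or more in either fraction, in each of the cultures. In CTR cultures 8 of the 22 were called higher in the GFP-positive cells and 7 lower (against 14.1% and 17% of all genes), with a median difference of 0.16, and in RA cultures 10 were called higher and 6 lower (against 10.2% and 14.1%), with a median of 0.95. The list thus held genes of both directions, and those called higher in both cultures were KCNE1, KCNH2, KCNIP2, KCNJ5, KCNJ11, KCNN1 and KCNQ1. Of the lower genes only KCNMA1 in CTR cultures, and KCNMA1 and KCNN3 in RA cultures, kept the call under all 10 alternatives. Of the higher genes all but KCNN2 in CTR, and all but KCNA4 and KCNN1 in RA cultures, kept it. KCNIP2 (ENSG00000120049, chromosome 10, 103585731 to 103603677) had 127 and 77.7 CPM in the RA and CTR GFP-positive cells against 3.62 and 2.77 CPM in the GFP-negative cells, a ratio of 35.2 (28.6 to 43.7) in RA and 28.1 (16.4 to 52.8) in CTR cultures. KCNQ1 (ENSG00000053918, chromosome 11, 2465884 to 2870335) had 94.6 and 82.7 CPM against 9.12 and 7.24 CPM, with ratios of 10.4 (9.07 to 11.9) and 11.4 (8.15 to 16.5). KCNH2 had ratios of 4.26 (4.05 to 4.49) in RA and 7.17 (6.23 to 8.28) in CTR cultures. In each of these genes both GFP-positive libraries lay above both GFP-negative libraries. KCNE1 had 24.3 and 29.8 CPM against 3.04 and 3.83 CPM, with 48.4% of its exon bases shared with annotated genes that were not among those counted. KCNH7 (ENSG00000184611, chromosome 2, 163227917 to 163695277), a relative of KCNH2 known from the nervous system, had 470 and 783 reads in the RA and CTR GFP-positive cells and 7 and 0 reads in the GFP-negative cells. It was 42.8-fold higher in CTR cultures, set against the floor of 3 reads, and 64.4-fold (31 to 161) higher in RA cultures. In CTR cultures its difference of log2(CPM + 1), 4.82, was the largest of the KCN genes. Of the 8 neuron markers, 7 were called lower and 1 (SNAP25, 12.5 against 4.69 CPM) higher in the GFP-positive cells of CTR cultures, and 1 was called lower (GAP43, 2.80 against 9.12 CPM) and none higher in those of RA cultures. Their part in the KCNH7 difference was not tested. KCNJ5 (ratio 9.11 in CTR and 37.3 in RA cultures), KCNJ11 (13.4 and 7.10), KCNQ3 (9.37 and 42.0), KCNA7 (3.85 and 64.3), KCNN1 (4.24 and 2.70), KCNMB4 (2.5 and 2.08) and KCNA6 (2.95 and 2.36) were called higher in both cultures. KCNA7, KCNN1, KCNMB4 and KCNA6 lost the call in RA cultures under at least 1 alternative, as did KCNA6 in CTR cultures. KCNJ5, KCNJ11 and KCNQ3 kept it in both.

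Genes lower in the GFP-positive cells included the calcium-activated pore KCNMA1, with ratios of 0.0537 (0.0412 to 0.0694) in CTR and 0.151 (0.115 to 0.195) in RA cultures. KCNJ15 had ratios of 0.0404 (0.0231 to 0.0675) and 0.0422 (0.0179 to 0.0849), and KCNIP1 of 0.0205 (0.0053 to 0.0578) and 0.0242 (0.0049 to 0.0724), the latter from 4 and 3 reads in the GFP-positive cells. KCNK6, a two-pore-domain channel, had 12.3 and 8.93 CPM in the RA and CTR GFP-positive cells against 31.2 and 47.7 CPM in the GFP-negative cells. All 4 were thus lower in both GFP-positive libraries than in either GFP-negative library. KCNJ2 had 1.12 CPM in RA GFP-positive cells and no reads in CTR GFP-positive cells, against 6.51 and 9.37 CPM in the GFP-negative cells. With the floor of 3 reads, this inward rectifier was 89.5-fold lower in the GFP-positive cells of CTR cultures. Its ratio was 0.172 (0.113 to 0.255) in RA cultures. No two-pore-domain channel was called higher in the GFP-positive cells of either culture, while 4 of 6 were called lower in CTR and 5 of 7 in RA cultures, where 17% and 14.1% of all genes were called lower. Of these channels only KCNK6 kept its call under all 10 alternatives, in each of the cultures. Endothelium markers (5 genes, all called lower in the GFP-positive cells of both cultures) summed to 17.1 and 18.5 CPM in the RA and CTR GFP-positive and to 252 and 280 CPM in the GFP-negative cells, with VWF at 0 in CTR GFP-positive cells. Of the 8 smooth muscle and fibroblast markers 6 were called lower and 1 higher in CTR and 5 lower and 2 higher in RA cultures. Gut and liver epithelium markers (7 genes) had 3 called lower in CTR and 7 in RA cultures, and none higher. Of the 6 pigment cell markers 4 were called lower and 1 higher in CTR and 2 lower and 1 higher in RA cultures. Pluripotent cell markers (4 genes) had 1 called lower in CTR and 3 in RA cultures, and none higher. The part of all these markers in the lower genes was not tested.

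Several genes called with RA in the GFP-positive cells had a different place in the sort in the 2 cultures. KCNE4 had a ratio of GFP-positive over GFP-negative of 0.0804 (0.0649 to 0.0993) in CTR and of 0.820 (0.761 to 0.883) in RA cultures, and KCNG1 of 0.213 (0.173 to 0.264) and 1.46 (1.36 to 1.57). KCNQ5 had ratios of 16.1 (9.57 to 29.6) and 1.88 (1.39 to 2.55), and KCNJ3 of 1.06 (0.815 to 1.39) and 3.72 (3.27 to 4.26). KCNE4 and KCNG1 were thus called lower in the GFP-positive cells of CTR cultures and were not called in those of RA cultures, and KCNQ5 was called in the GFP-positive cells of CTR cultures and not of RA cultures. The CTR and RA values come from different libraries, and the difference between them was not tested. Sort differences of opposite signs in the cultures, with both intervals excluding equal CPM, were seen for 8 of the 85 KCN genes with at least 4 reads in a library (9.41%, against 3.89% of 29580 genes).

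**Figure D4:**
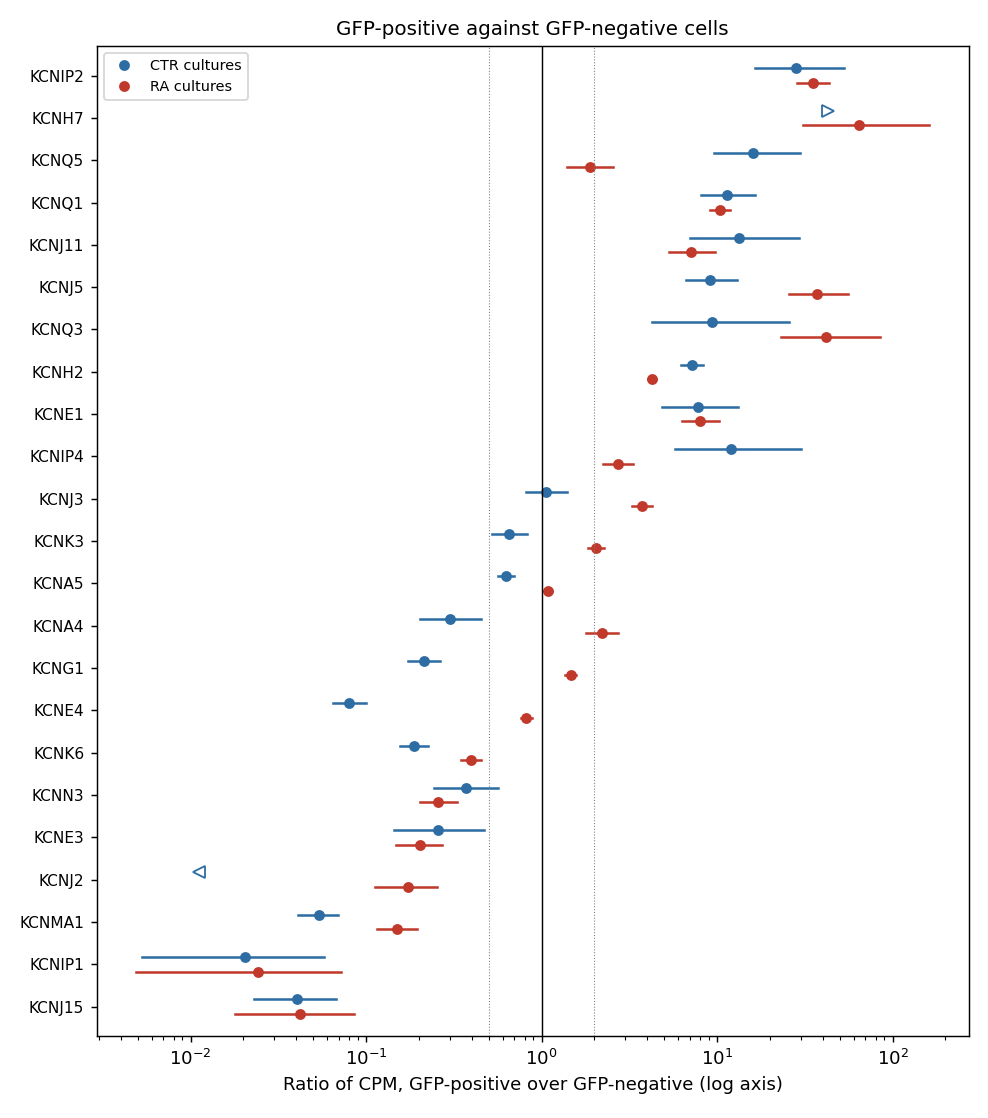
Points give the ratio of CPM in GFP-positive over GFP-negative cells on a log axis for 23 KCN genes in CTR (blue) and RA (red) cultures, with 95% intervals for counting error as lines. Triangles set a CPM against the floor of 3 reads, without the counting error of that CPM. Dotted lines mark 2-fold. KCNIP2 lies at 28.1 and 35.2, KCNMA1 at 0.0537 and 0.151, and KCNA4 on opposite sides of equal CPM, at 0.300 and 2.21.

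Other genes of potassium handling, 29 in all, were set beside the channels: the sodium pump, cation-chloride cotransporters, sulfonylurea receptors, HCN channels, scaffolds and further partners. Among GFP-positive cells 23 were at 1 CPM or more in either library, and 1 was called higher with RA (LRRC55, a subunit of the large-conductance calcium-activated channel, at 11.7 against 2.41 CPM) and 2 lower, among them ABCC9, the sulfonylurea receptor that pairs with KCNJ8 and KCNJ11, at 4.08 against 10.1 CPM, where 5.09% and 2.12% of all genes were called. Among GFP-negative cells 2 of 25 were called higher (DPP6 and HCN2) and 4 lower, ABCC8 and HCN4 among them, against 8.69% and 7.61% of all genes. The pacemaker channel HCN4 had 530 and 457 CPM in the RA and CTR GFP-positive cells and 31.3 and 67.7 CPM in the GFP-negative cells. In the sort, 11 of 25 were called higher and 2 lower in the GFP-positive cells of CTR cultures (against 14.1% and 17% of all genes), and 9 and 4 of 24 in those of RA cultures (against 10.2% and 14.1%).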

How the data were processed

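RNA sequencing of 4 sorted NKX2.5:GFP populations was analysed, with 1 library each. The authors trimmed the strand-specific paired-end reads, aligned them to a custom hg19 genome with GSNAP and sorted them with SAMtools 0.1.18 (tools named in the submitters' processing notes), kept reads with 1 location and counted them per Ensembl gene with HTSeq 0.6.1p1 without strand. The deposited values are these raw counts. Neither the Ensembl release nor the custom part of that genome is given in the sources read here. Genes with near-identical copies can therefore be undercounted, and the 11 KCN genes sharing at least 25% of their exon bases with other genes (KCNC2, KCNE1, KCNE2, KCNH1, KCNIP4, KCNJ13, KCNJ14, KCNK4, KCNMB2, KCNMB3 and KCNRG) are uncertain, while 55 share none. For KCNE1 and KCNMB2 the sharing genes were not among those counted, so the overlap need not have cost them reads.

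Symbols and coordinates came from GENCODE release 44 lifted to GRCh37. CPM used TMM factors (0.951 to 1.07) of all 4 libraries from edgeR 4.0.16 in R 4.3.3. Differences are of log2(CPM + 1), which understates changes of low genes. Intervals are at the 95% level, Clopper-Pearson for ratios and exact Poisson for CPM. Since amplified reads are not independent molecules, these intervals, and the 3 reads taken as a floor, hold for counting error alone. Fold values set against that floor leave out the counting error of the library with reads, so they are not lower limits. No replicates exist, so no test between conditions was made. Promoter stretches came from RefSeq. The procedure was tested on simulated data. Python 3.11.15, scipy 1.17.1 and matplotlib 3.10.9 were used.

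The members and lists were chosen with earlier results of these data known. Named were the genes the set was required to hold, the 23 cardiac current genes, the 5 largest differences each way per comparison, the 5 highest per kb in each library, genes with opposite RA differences in the fractions, and genes seen in 1 library of a pair and not in the other. The remaining called genes were named because of their values. A few genes of the lists are counted and otherwise not reported here. The alternatives were library size alone, DESeq2 1.42.0 size factors, upper quartile factors, library size after removal of mitochondrial reads and those of the 10 top genes, a pseudocount of 0.25 or 5 CPM, no filter and a filter of 10 CPM, a call that also needs the interval to exclude equal CPM, 1 random thinning of all libraries to 4371101 reads, and for detection minimums of 10 reads or 1 CPM.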

Additional observations from a re-analysis of the deposited data

Results flagged for a closer look

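For 10 KCN genes the RA difference had opposite signs in the 2 fractions, and in each fraction the interval of the ratio excluded equal CPM. These were 11.8% of the 85 KCN genes with at least 4 reads in a library, against 7.57% of the 29580 genes of the whole table at that level. Their differences of log2(CPM + 1), in GFP-positive and then in GFP-negative cells, were KCNA4 (1.79 and -0.65), KCNAB2 (0.22 and -0.87), KCNH2 (-0.06 and 0.67), KCNH3 (0.30 and -0.77), KCNIP4 (-0.28 and 1.35), KCNJ12 (0.31 and -0.96), KCNJ2 (1.09 and -0.47), KCNK15 (1.21 and -0.57), KCNK6 (0.43 and -0.60) and KCNMB1 (-0.55 and 1.07). KCNA4, KCNJ2 and KCNK15 were called higher in the GFP-positive cells, and KCNIP4 and KCNMB1 were called higher in the GFP-negative cells. For KCNH3 the difference in GFP-positive cells changed sign, to -0.27, when the libraries were thinned to equal depth in 1 random draw. For the inward rectifier KCNJ2 the GFP-positive value rests on 30 reads against 0. Whether the fractions differ was not tested, since each value comes from 1 pair of libraries.

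For 8 of the 85 KCN genes (9.41%, against 3.89% of the 29580) the difference between GFP-positive and GFP-negative cells had opposite signs in CTR and RA cultures under the same condition on the intervals. The values of 7 of them, in CTR and then in RA cultures, were KCNA4 (-1.43 and 1.01), KCNA5 (-0.66 and 0.13), KCNF1 (-0.79 and 0.39), KCNG1 (-2.08 and 0.54), KCNK3 (-0.59 and 0.99), KCNS3 (1.14 and -0.76) and KCNV2 (-1.29 and 0.61). KCNA4 was called in both cultures, in opposite directions, KCNG1 and KCNV2 were called lower in CTR cultures, and KCNS3 was called higher there. Of these calls only that of KCNG1 held under all 10 alternatives. The difference between the cultures was not tested.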

How the results depend on the processing

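Of 92 counts of KCN genes under the alternatives, 79 stayed within 1.5 times their main value and 13 moved. With a pseudocount of 0.25 CPM, 12 rather than 7 genes were called lower with RA in GFP-negative cells. A pseudocount of 5 CPM left 7 called higher with RA in GFP-positive cells, 1 higher and 2 lower in GFP-negative cells, 8 lower in the sort of CTR cultures, and 11 higher and 5 lower in that of RA cultures. A minimum of 10 CPM, which admits fewer genes, left 7 higher in GFP-positive cells, 2 higher and 2 lower in GFP-negative cells, 6 lower in the sort of CTR cultures and 5 lower in that of RA cultures. With libraries thinned to equal depth, in 1 random draw, 4 genes were called lower with RA in GFP-positive cells (KCNQ5, KCNJ5, KCNK7 and KCNMB1), and the cause was not tested. Before thinning, KCNK7 had 13 and 35 reads and KCNMB1 35 and 68 in RA and CTR GFP-positive cells. Under all 10 alternatives 7 of the 11 genes called higher and the 1 called lower with RA in GFP-positive cells kept their call, against 1 of 12 and 1 of 7 in GFP-negative cells, 13 of 16 and 5 of 25 in the sort of CTR cultures, and 10 of 20 and 4 of 16 in that of RA cultures. The minimum of 10 CPM drops every gene under it in both libraries whatever its difference, and no filter can lose no call. These counts therefore partly follow abundance. Of 1708 differences of single named genes, 80 moved beyond the interval of their counting error and none that was called changed sign. The other 1628 include differences with 0 reads in a library, which have no finite interval and could not be counted as moved.

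The median of the KCN genes in GFP-positive cells with RA went from 0.14 to -0.03 with library size alone and to -0.11 after thinning, and that of all genes from 0.01 to -0.06 and 0.02. In GFP-negative cells the median over all genes went from 0.04 to -0.08 with library size alone and to -0.09 without mitochondrial and abundant genes, and that of the KCN genes from -0.15 to -0.28 and -0.29. No paired analysis was possible because each condition has 1 library and the labels give no replicate numbers, and leaving out a replicate was not possible for the same reason. Depth limits the CTR GFP-negative library, in which 3 reads are worth 0.639 CPM.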

Other observations

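For several KCN genes the levels in all 4 libraries are added here. KCND1, a Kv4 pore, had 21.2 CPM in RA GFP-positive, 20.9 in CTR GFP-positive, 25 in RA GFP-negative and 24.9 in CTR GFP-negative cells, and none of its 4 differences was called. KCNC4, a fast-activating Kv3 pore, had 2.58, 3.25, 5.42 and 9.58 CPM in the same order, so that it was lower in both GFP-positive libraries. KCNAB2, a cytoplasmic subunit of KCNA channels, had 19.3, 16.4, 18.5 and 34.7 CPM, with CTR GFP-negative cells standing above the others. KCNMB1, the large-conductance channel subunit known from smooth muscle, had 1.31, 2.37, 5.57 and 2.13 CPM, and KCNMB2 had 1.23, 0.558, 6.08 and 5.32 CPM, with 32.1% of its exon bases shared with annotated genes that were not among those counted. KCNE3, an auxiliary subunit known from epithelia, had 2.06, 1.15, 10.2 and 4.47 CPM and was called lower in the GFP-positive cells of both cultures.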
